A study of Homo sapiens with 6 samples.

Results

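The genes described here are 15 small nuclear, small nucleolar and related noncoding RNA genes. They were chosen from the count table by symbol, as genes whose symbol starts with SNORA, SNORD or SCARNA and a number, as RNU genes with a numbered suffix, or as RN7SK, 7SK, RN7SL1, RN7SL2, RMRP, RPPH1 or TERC. Symbols that end in P, a usual mark of pseudogenes, were left out, but RMRP was kept because the list names it. Of 61541 genes in the table, 580 bore such a symbol, and the 15 members were those with at least 30 counts summed over all 6 libraries. The sum takes no account of the treatment. Counts are given as the authors estimated them per gene, or as CPM, which scales them to the library total.

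The libraries were bulk RNA-seq of H9, an established human T-cell lymphoma line labelled as wild type, with 3 libraries from cells treated with DMSO (the vehicle) and 3 from cells treated for 4 h with AZD4573, a selective inhibitor of CDK9. CDK9 is the kinase of P-TEFb, which releases paused RNA polymerase II into elongation. The sample labels give no time for DMSO, and no label says whether replicates were separate cultures, so p-values measure the spread between libraries, which may be technical. Of 10 T-cell markers, 8 were at 1 CPM or more in every library, whereas CD2 (at most 0.170 CPM) and CD7 (at most 0.752 CPM) were not, and of the markers of other cell types CD79A (57.2 to 94.2 CPM) and POU5F1 (1.11 to 2.21 CPM) reached that level, while MS4A1 was at most 0.329 CPM and the other stem cell markers SOX2 and NANOG at most 0.0576 and 0 CPM.

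Small nucleolar RNAs guide the chemical modification or the cleavage of ribosomal RNA within protein complexes of the box C/D class (SNORD) or the box H/ACA class (SNORA), and small Cajal body RNAs (SCARNA) do so for the spliceosomal RNAs. Most human snoRNAs are cut out of the introns of host genes, while U3 (the SNORD3 genes) has promoters of its own. 7SK RNA holds P-TEFb in an inactive complex with HEXIM and LARP7 proteins, 7SL RNA is the scaffold of the signal recognition particle, RPPH1 and RMRP are the RNAs of RNase P and RNase MRP, and TERC is the template RNA of telomerase. Mature RNAs of these kinds carry no lasting poly(A) tail, and the labels describe these libraries as poly(A) RNA.

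The members took few counts. They held 0.00226%, 0.00262% and 0.00528% of the counts of DMSO replicates 1 to 3 and 0.00431%, 0.00333% and 0.00340% of those of AZD4573 replicates 1 to 3, out of 52101868 to 76571157 counts per library. DMSO replicate 3 stood apart from the other DMSO libraries, with the highest CPM of the group for 12 of 15 members and more than 2 times the mean of the other DMSO libraries for 9. Its share of counts in the 18S region of the ribosomal DNA repeats, another RNA without a poly(A) tail, was 0.330% against 0.101% and 0.112% in DMSO replicates 1 and 2, and this share was 1.22% to 1.32% in the AZD4573 libraries. The part of such RNA in the results below was not tested, and a result that loses or gains its call, turns its direction or moves by over 1.5 times without DMSO replicate 3 is given both ways. In bulk libraries, a higher CPM of 1 RNA and less of all other RNA per cell cannot be told apart.

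The sequences that separate the family members show how far reads can be assigned. The first bases of the 3 U3 genes are given below in the 5′ to 3′ direction from the GRCh38 genome at the GENCODE 44 coordinates, for SNORD3A at chr17:19188016-19188305 (plus strand), SNORD3B-1 at chr17:19061912-19062201 (plus strand) and SNORD3B-2 at chr17:19063847-19064136 (minus strand). In SNORD3A the capitals mark every TGATGA, a form of the C box, and every CTGA, the letters of the D box. A marked match need not be a working box. In the other genes the capitals mark bases that differ from SNORD3A.
SNORD3A: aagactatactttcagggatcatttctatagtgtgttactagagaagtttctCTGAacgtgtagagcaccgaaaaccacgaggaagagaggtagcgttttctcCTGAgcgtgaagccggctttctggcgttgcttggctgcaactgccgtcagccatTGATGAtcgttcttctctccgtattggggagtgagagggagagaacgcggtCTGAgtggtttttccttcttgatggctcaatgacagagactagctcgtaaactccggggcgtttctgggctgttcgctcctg
SNORD3B-1: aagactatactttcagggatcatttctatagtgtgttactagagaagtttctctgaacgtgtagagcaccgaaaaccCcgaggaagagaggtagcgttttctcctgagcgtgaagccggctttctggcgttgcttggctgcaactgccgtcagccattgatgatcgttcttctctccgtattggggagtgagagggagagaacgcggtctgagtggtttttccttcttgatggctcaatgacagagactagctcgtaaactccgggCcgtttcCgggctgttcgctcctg
SNORD3B-2: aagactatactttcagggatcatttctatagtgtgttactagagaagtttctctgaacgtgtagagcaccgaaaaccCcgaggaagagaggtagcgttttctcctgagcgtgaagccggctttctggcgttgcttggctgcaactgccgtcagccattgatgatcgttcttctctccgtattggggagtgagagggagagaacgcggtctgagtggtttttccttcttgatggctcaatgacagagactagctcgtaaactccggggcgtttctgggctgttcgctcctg

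Within this stretch SNORD3B-2 differed from SNORD3A at 1 position (A78C) and SNORD3B-1 at 3 (A78C, G267C and T274C), with positions counted from 1 at the 5′ end of SNORD3A. Over the whole entries, 694 of 699 aligned bases of SNORD3A were identical in SNORD3B-1 and 687 of 690 in SNORD3B-2, and 49.3% of all 100-base windows of SNORD3A occurred without change in another of the 3 genes. The annotated entries are longer than the mature U3 RNA and continue into the sequence that follows it. The split of counts among the 3 genes is therefore uncertain, and their sum is the firmer value.

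Both 7SL genes are close copies in the same way. RN7SL1 lies at chr14:49586580-49586878 (plus strand) and RN7SL2 at chr14:49862550-49862849 (minus strand), of GRCh38 like all coordinates here. They were identical at 295 of 299 aligned bases, and 53% of the 100-base windows of RN7SL1 occurred in RN7SL2. Of the 7SK RNA, 1 sequence serves for 2 entries, because RN7SK (ENSG00000283293, chr6:52995621-52995948, plus strand) lies within the entry 7SK (ENSG00000202198, chr6:52995620-52995950, plus strand) over all its 328 bases. Its first 300 bases, with no letters in capitals, are shared by both.
RN7SK: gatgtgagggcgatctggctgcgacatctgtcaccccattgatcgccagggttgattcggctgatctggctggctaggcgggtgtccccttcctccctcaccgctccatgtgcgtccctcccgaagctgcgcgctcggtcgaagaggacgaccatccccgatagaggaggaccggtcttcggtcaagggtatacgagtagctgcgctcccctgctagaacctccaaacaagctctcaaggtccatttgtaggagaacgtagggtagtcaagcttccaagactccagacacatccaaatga

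SNORD17 and SCARNA9 are shown as intronic box C/D RNAs whose ratios to their host genes are described below, with TGATGA and CTGA in capitals. SNORD17 lies at chr20:17962710-17962946 (minus strand) in an intron of SNX5, and the stretch of SCARNA9 at chr11:93721513-93721812 (plus strand) in CEP295.
SNORD17: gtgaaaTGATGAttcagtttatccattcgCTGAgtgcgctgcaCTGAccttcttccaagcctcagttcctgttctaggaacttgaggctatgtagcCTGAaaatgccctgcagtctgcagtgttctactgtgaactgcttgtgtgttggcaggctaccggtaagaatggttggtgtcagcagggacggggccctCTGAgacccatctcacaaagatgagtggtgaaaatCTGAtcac
SCARNA9: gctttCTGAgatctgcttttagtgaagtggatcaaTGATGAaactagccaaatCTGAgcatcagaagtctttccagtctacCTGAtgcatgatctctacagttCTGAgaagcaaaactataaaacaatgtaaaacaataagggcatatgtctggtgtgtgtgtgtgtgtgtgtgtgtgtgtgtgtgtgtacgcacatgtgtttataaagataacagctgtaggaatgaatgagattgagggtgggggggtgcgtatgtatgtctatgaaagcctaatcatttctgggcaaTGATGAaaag

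These letters, searched on the strand of the RNA only, occurred together in 72.9% of the 314 SNORD entries, 44% of the 25 SCARNA entries and 1.87% of the 214 SNORA entries, at any length and with no rule on their spacing. CTGA alone occurred in 96.8% of the SNORD, 72% of the SCARNA and 50% of the SNORA entries, so a marked CTGA need not be a D box. SNORD17 held TGATGA 1 time, at bases 7 to 12, with a CTGA at bases 230 to 233 near its other end. SCARNA9 held TGATGA at bases 36 to 41 and again at 291 to 296, and SNORD3A held it at bases 158 to 163.

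Upon AZD4573 treatment, 5 of the 15 members were higher and 0 lower, with an adjusted p below 0.05 in the quasi-likelihood test of edgeR (Benjamini-Hochberg adjustment over all 19248 genes with at least 30 counts) and a change of 1.5-fold or more. These were the 3 U3 genes, SCARNA9 and RN7SK, or 33.3% of the members (the U3 genes share reads and are not independent), where 22.0% of all genes tested were higher and 22.4% lower. Among the 10188 genes whose summed count lies within the range of the members (40 to 5878), 31.4% were higher and 20.5% lower. The share of higher members is near that of these genes, although most members lie low in this range. DESeq2 called 5 members higher and 0 lower (4040 and 4174 of 19245 genes). At an unadjusted p under 0.05 in the edgeR test, 5 members were higher and 1 lower. The share of all genes at that looser threshold was not taken, so nothing is read from these counts. The CPM of every AZD4573 library lay above every DMSO library for 5 members (33.3% of all genes) and below for 0 (40.3% of all genes). The median log2 fold change of the members was 0.24, with 8 of 15 above 0, beside 0.03 for all genes. Scaling the libraries to the 13 mRNAs of the mitochondrial genome moved the median of all genes from 0.03 to -0.69 and gave 3 higher and 4 lower members. With that scaling 1887 of the 19248 genes were higher and 9626 lower.

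**Figure D1:**
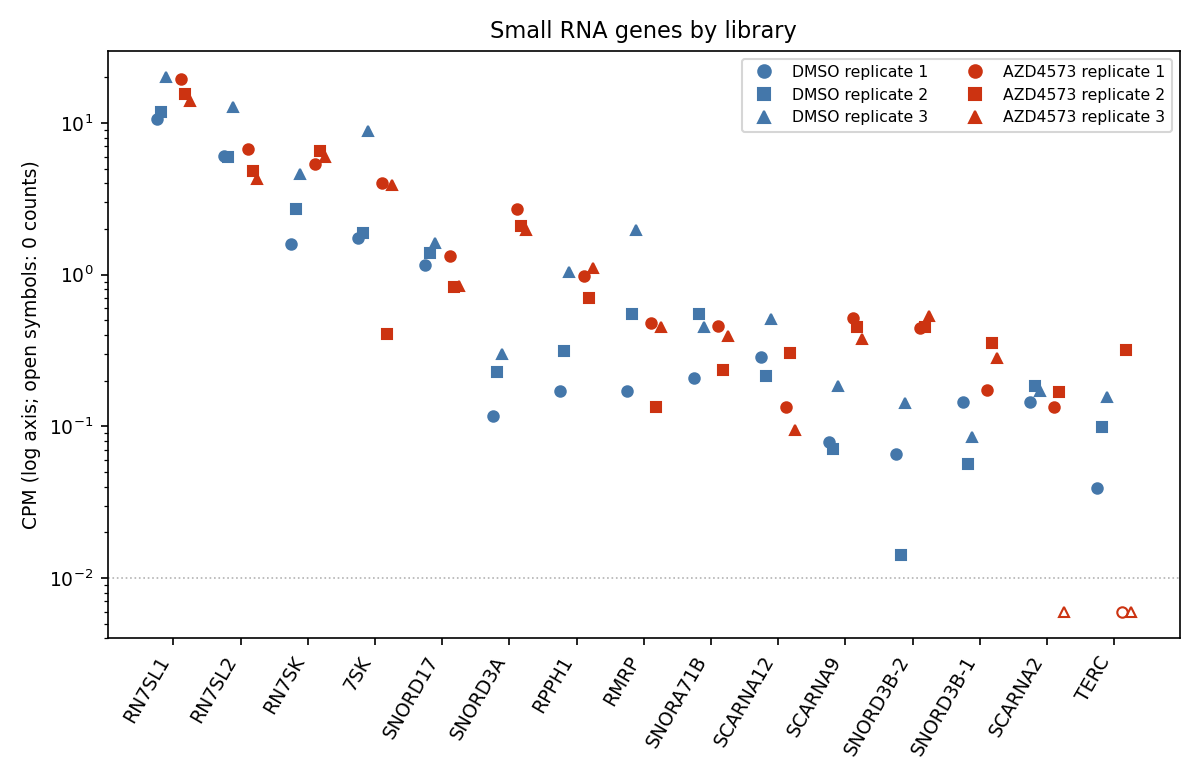
CPM of each member (log axis) in each library, ordered by summed count, with DMSO in blue, AZD4573 in red, the replicate number as the symbol and open symbols at the bottom for 0 counts. The U3 genes, SCARNA9 and RN7SK have all AZD4573 libraries above all DMSO libraries, and DMSO replicate 3 (blue triangle) is the highest DMSO library for 12 of 15 members.

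Among the members, the U3 entry SNORD3A had the largest rise. U3 RNA takes part in the early cleavages that release 18S rRNA. The counts cover whole entries, which are longer than mature U3 RNA, and do not separate it from longer transcripts. Which of these rose was not tested. SNORD3A (ENSG00000263934, chr17:19188016-19188714) had 9, 16 and 21 counts with DMSO and 141, 124 and 125 with AZD4573. Every AZD4573 library lay far above every DMSO library, although it was less deep. The mean rose from 0.214 ± 0.0908 to 2.25 ± 0.400 CPM (SD, n = 3), which on the log2 scale was a fold change of 3.48 (SE 0.284, adjusted p = 9.6e-08).

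SNORD3B-2 (ENSG00000262074, chr17:19063346-19064136) had 5, 1 and 10 counts with DMSO and 23, 27 and 34 with AZD4573, again without overlap. Its log2 fold change was 2.75 (SE 0.562, adjusted p = 0.000596), or 3.57 without DMSO replicate 3 and 2.29 without DMSO replicate 2, the ends of its range with libraries left out. SNORD3B-1 (ENSG00000265185, chr17:19061912-19062669) had 11, 4 and 6 counts with DMSO and 9, 21 and 18 with AZD4573, where the lowest AZD4573 count was below the highest DMSO count but its CPM was above. Its log2 fold change of 1.57 (SE 0.550, adjusted p = 0.0208) was no longer called without DMSO replicate 2 (adjusted p = 0.0750), DMSO replicate 3 (0.0570) or AZD4573 replicate 2 (0.0802), or when scaled to the mitochondrial mRNAs (0.185).

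Summed over the 3 genes, the U3 entries had 25, 21 and 37 counts with DMSO and 173, 172 and 177 with AZD4573. The sum rose 7.82-fold, from 0.383 ± 0.123 to 3.0 ± 0.287 CPM (SD, n = 3), with a log2 fold change of 3.05 (SE 0.218, adjusted p = 2.4e-08). This log2 fold change lay between 2.33, scaled to the mitochondrial mRNAs, and 3.33, without DMSO replicate 3, over all alternatives run. SNORD3A held 36.0%, 76.2% and 56.8% of the summed counts with DMSO and 81.5%, 72.1% and 70.6% with AZD4573. Counts in the 18S region moved in the same direction between the groups, as given above. The part of that RNA in the rise of the U3 entries was not tested.

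**Figure D2:**
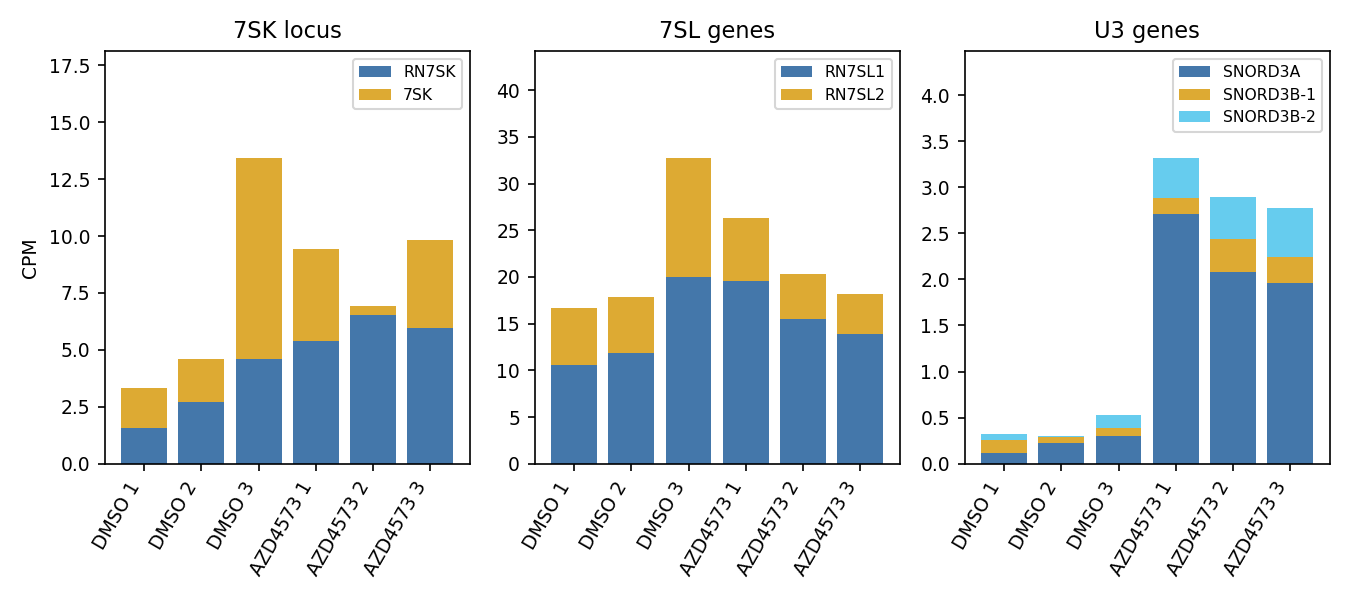
Stacked CPM per library of the 2 entries of the 7SK locus, the 2 7SL genes and the 3 U3 genes, with 1 color per entry and bars that start at 0. The sum of the U3 genes is higher in all AZD4573 libraries. The sums of 7SK and 7SL overlap between the groups and are highest in DMSO replicate 3.

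The other snoRNAs showed no call. SNORD17 (ENSG00000212232), a box C/D RNA, had 89, 97 and 114 counts with DMSO and 69, 49 and 54 with AZD4573. All 3 AZD4573 counts were below the DMSO counts, but in CPM AZD4573 replicate 1 (1.32) was above DMSO replicate 1 (1.16), so the groups overlapped. On the log2 scale, SNORD17 differed by -0.39 (SE 0.228, adjusted p = 0.141). Without AZD4573 replicate 1 it was -0.63 (adjusted p = 0.0282), and scaled to the mitochondrial mRNAs -1.11 (adjusted p = 0.000437).

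SNORA71B (ENSG00000235408, chr20:38425083-38425354, minus strand), the only box H/ACA member, lies in an intron of SNHG17. It had 16, 39 and 32 counts with DMSO and 24, 14 and 25 with AZD4573, and the groups overlapped. Its log2 fold change was -0.07 (SE 0.424, adjusted p = 0.892), and 0.015 (adjusted p = 0.982) without DMSO replicate 3.

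Among the Cajal body RNAs, 1 of 3 rose. SCARNA9 (ENSG00000254911, chr11:93721513-93721865), a box C/D RNA that acts on the U2 spliceosomal RNA, had 6, 5 and 13 counts with DMSO and 27, 27 and 24 with AZD4573. All AZD4573 libraries were above all DMSO libraries, and the mean rose from 0.111 ± 0.0634 to 0.450 ± 0.0711 CPM (SD, n = 3). The log2 fold change was 2.09 (SE 0.472, adjusted p = 0.00131) and 1.38 to 2.63 over all alternatives run. Of its 353 bases, 149 lie in the exons of 2 further snoRNA entries, both at 0 counts in every library.

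SCARNA12 (ENSG00000238795, chr12:6967337-6967606, minus strand) lies wholly within an annotated exon of PHB2, so its reads cannot be told apart from those of that PHB2 transcript by position. It had 22, 15 and 36 counts with DMSO and 7, 18 and 6 with AZD4573, where replicate 2 of AZD4573 was above replicate 2 of DMSO. Its log2 fold change was -0.83 (SE 0.524, adjusted p = 0.175), and without that AZD4573 library it was -1.48 (adjusted p = 0.0460). With mitochondrial scaling SCARNA12 was called lower (-1.55, adjusted p = 0.0124).

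SCARNA2 (ENSG00000278249, chr1:109100193-109100612), another U2 guide, had 11, 13 and 12 counts with DMSO and 7, 10 and 0 with AZD4573. The 0 in AZD4573 replicate 3, which allows up to 0.0470 CPM, coincided with 17 counts in ENSG00000270066, an entry that holds all of SCARNA2 and had 0 counts in the other 5 libraries. Summed over both entries the locus had 11, 13 and 12 counts with DMSO and 7, 10 and 17 with AZD4573. The log2 fold change was -0.65 (SE 0.755, adjusted p = 0.458) for SCARNA2 alone and 0.30 (SE 0.498, adjusted p = 0.612) for the sum.

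At the 7SK locus, the entry RN7SK had 121, 192 and 324 counts with DMSO and 281, 387 and 379 with AZD4573. AZD4573 replicate 1 was below DMSO replicate 3 in counts, but in CPM all AZD4573 libraries were above all DMSO libraries. The mean rose from 2.97 ± 1.52 to 5.95 ± 0.558 CPM (SD, n = 3), with 1.10 as the log2 fold change (SE 0.257, adjusted p = 0.00165). Scaled to the mitochondrial mRNAs it was 0.38 (adjusted p = 0.150).

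The entry 7SK had 134, 133 and 624 counts with DMSO and 210, 24 and 247 with AZD4573. DMSO replicate 3 was the highest and AZD4573 replicate 2 the lowest library, and the log2 fold change of -0.49 (SE 0.633, adjusted p = 0.501) turned to 0.68 without the first (adjusted p = 0.285) and to 0.02 without the second (adjusted p = 0.983). This entry held 52.5%, 40.9% and 65.8% of the locus's counts with DMSO and 42.8%, 5.84% and 39.5% with AZD4573, although the entries share all but 3 bases. Summed over both, the locus had 255, 325 and 948 counts with DMSO and 491, 411 and 626 with AZD4573, or 1528 in each group. The summed log2 fold change was 0.39 (SE 0.361, adjusted p = 0.351), so the rise of the entry RN7SK did not hold for the locus with all libraries. Without DMSO replicate 3 it was 1.22 (adjusted p = 1.9e-05).

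For 7SL RNA, RN7SL1 (ENSG00000276168) had 808, 837 and 1408 counts with DMSO and 1018, 921 and 886 with AZD4573. The groups overlapped, with a log2 fold change of 0.30 (SE 0.185, adjusted p = 0.170). Without DMSO replicate 3, the highest of the 6 libraries, it was 0.62 (adjusted p = 0.000422).

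RN7SL2 (ENSG00000274012) had 467, 422 and 904 counts with DMSO and 353, 288 and 273 with AZD4573. The AZD4573 counts were the lowest, but the CPM of AZD4573 replicate 1 (6.78) lay above that of DMSO replicates 1 and 2 (6.10 and 6.0). The log2 fold change was -0.56 (SE 0.250, adjusted p = 0.0600). It was called lower without DMSO replicate 1 (-0.74, adjusted p = 0.0177), DMSO replicate 2 (-0.75, 0.0136) or AZD4573 replicate 1 (-0.76, 0.0352), whereas without DMSO replicate 3 it was -0.12 (0.547). With mitochondrial scaling it was called lower as well (-1.27, adjusted p = 0.000132).

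RN7SL1 held 63.4%, 66.5% and 60.9% of the counts of both 7SL genes with DMSO and 74.3%, 76.2% and 76.4% with AZD4573. The share did not overlap between the groups, and being taken within a library it does not depend on the scaling or on the total amount of 7SL, although it depends on how reads were assigned between near-identical copies. The summed counts were 1275, 1259 and 2312 with DMSO and 1371, 1209 and 1159 with AZD4573. The summed log2 fold change was 0.03 (SE 0.201, adjusted p = 0.887), and without DMSO replicate 3 it was 0.40 (adjusted p = 0.00802).

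Of the RNAs of the tRNA- and rRNA-processing ribonucleases, RPPH1 (ENSG00000277209, chr14:20343075-20343407, minus strand) had 13, 22 and 73 counts with DMSO and 51, 42 and 71 with AZD4573. DMSO replicate 3 had the most counts of all libraries and in CPM (1.03) lay within the AZD4573 libraries (0.707 to 1.11), while the other DMSO libraries lay below them. The log2 fold change was 0.99 (SE 0.479, adjusted p = 0.0819), and 2.04 (adjusted p = 0.000380) without DMSO replicate 3. All of RPPH1 lies in ENSG00000259001, which had 12, 8 and 13 counts with DMSO and 26, 39 and 62 with AZD4573. Summed over both entries, the log2 fold change was 1.42 (SE 0.381, adjusted p = 0.00430), with the CPM of each AZD4573 library above each DMSO library. The sum was at 2.21 (adjusted p = 1.5e-05) without DMSO replicate 3 and was not called with mitochondrial scaling (0.71, adjusted p = 0.0828).

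RMRP (ENSG00000277027, chr9:35657754-35658017, minus strand) had 13, 39 and 138 counts with DMSO and 25, 8 and 29 with AZD4573, with DMSO replicate 3 far above the other 5 libraries. RMRP had a log2 fold change of -1.22 (SE 0.672, adjusted p = 0.121) with that library and 0.07 (adjusted p = 0.927) without it. Without DMSO replicate 1, in contrast, it was -1.72 (adjusted p = 0.00962), and with mitochondrial scaling and all libraries -1.93 (adjusted p = 0.0109). A second RMRP entry (ENSG00000269900), which did not reach 30 counts, had 13 counts in DMSO replicate 3 and 0 elsewhere.

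TERC (ENSG00000270141, chr3:169764520-169765060, minus strand) had 3, 7 and 11 counts with DMSO and 0, 19 and 0 with AZD4573. In the AZD4573 libraries its counts and those of a second telomerase RNA entry (ENSG00000277925), which shares 438 of its 541 bases, were uneven in opposite ways, since that entry had 8, 9 and 5 counts with DMSO and 19, 3 and 21 with AZD4573. Summed, the locus had 11, 16 and 16 counts with DMSO and 19, 22 and 21 with AZD4573, without overlap. This gave a log2 fold change of 0.24 (SE 1.07, adjusted p = 0.855) for TERC alone and 0.92 (SE 0.403, adjusted p = 0.0563) for the sum. Without AZD4573 replicate 2, which leaves AZD4573 libraries at 0 counts only, TERC was called lower (adjusted p = 0.0164), and the fitted change of -5.70 is then no measure of size. A count of 0 in AZD4573 replicates 1 and 3 allows up to 0.0576 and 0.0470 CPM, and such limits cover counting error only.

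**Figure D3:**
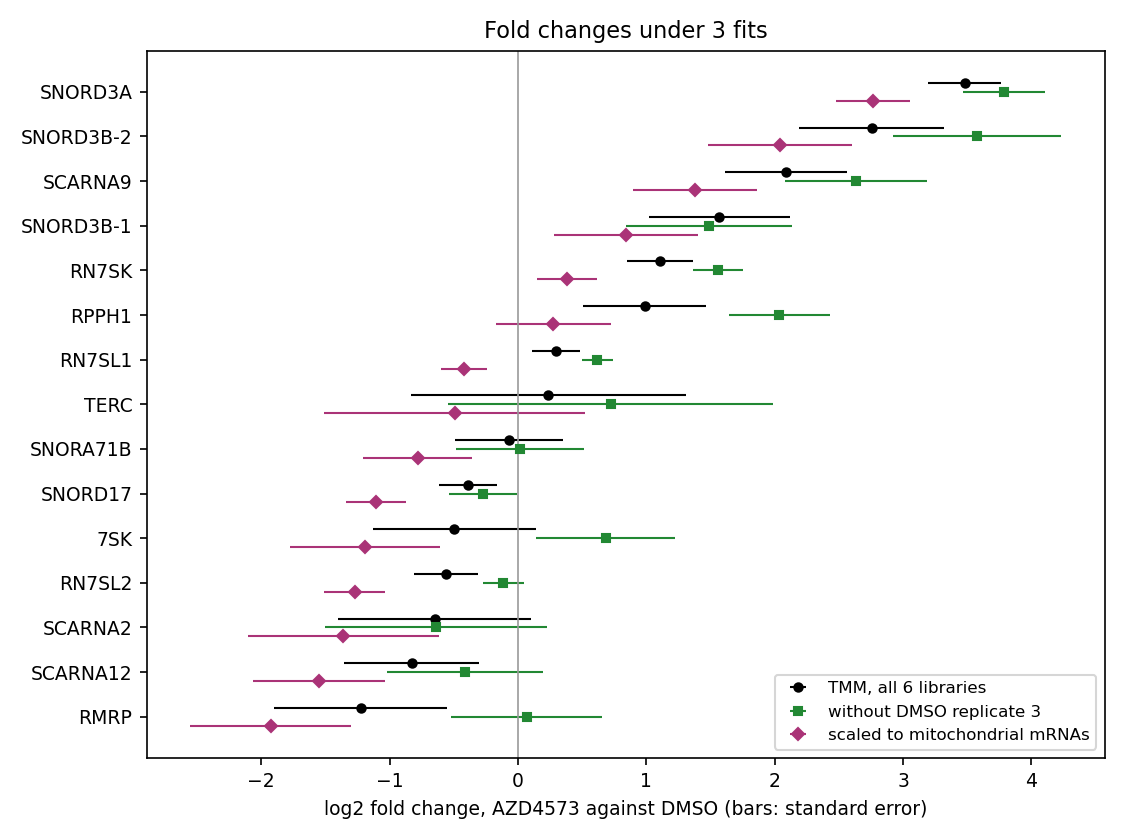
Log2 fold change of each member (AZD4573 against DMSO, bars for the standard error) with TMM scaling and all 6 libraries (black), without DMSO replicate 3 (green) and scaled to the mitochondrial mRNAs (purple). The U3 genes, SCARNA9, RN7SK and RPPH1 stay above 0 in all 3 fits, whereas RMRP, 7SK and SNORA71B change sign without DMSO replicate 3 and RN7SL1 and TERC when scaled to the mitochondrial mRNAs.

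Levels between genes were compared per length. In CPM per kilobase of annotated length, RN7SL1 was at 47.3 with DMSO and 54.5 with AZD4573 and RN7SL2 at 27.7 and 17.7. RN7SK followed at 9.05 and 18.1 and 7SK at 12.6 and 8.36. SNORD17 was at 5.85 and 4.21 and SNORD3A at 0.306 and 3.22, and with AZD4573 this order of both rests on the long annotated entry of SNORD3A and on the uncertain split of U3 counts. With DMSO, RN7SK (2.97 ± 1.52 CPM) and 7SK (4.16 ± 4.06 CPM, SD, n = 3) did not differ beyond their spread. Without DMSO replicate 3 their order with DMSO was reversed, at 2.15 CPM for RN7SK and 1.82 CPM for 7SK.

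A ratio within a library, which no scaling between libraries affects, was taken for the 7 members that lie on the same strand within a longer gene, each with an exact two-sided permutation test over 3 against 3 libraries, whose smallest p is 0.1. SNORD17 had 6.71, 7.77 and 9.04 counts per 1000 counts of SNX5 with DMSO and 5.84, 3.51 and 3.60 with AZD4573. The groups did not overlap. SNX5 itself, a sorting nexin, was higher upon treatment with TMM scaling (log2 fold change 0.49, SE 0.0404, adjusted p = 1.2e-07). The log2 ratio differed by -0.89 (exact permutation p = 0.1, 0.233 adjusted over the 7 pairs).

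SCARNA9 had 3.07, 2.73 and 6.98 counts per 1000 counts of CEP295, a centriole protein, with DMSO and 29.001, 23.5 and 20.03 with AZD4573. These groups did not overlap either, and the host mRNA was lower (log2 fold change -0.39, SE 0.0600, adjusted p = 5.5e-05) while SCARNA9 rose. The log2 ratio differed by 2.55 (exact permutation p = 0.1, 0.233 adjusted). SNORA71B had 3.86, 8.83 and 6.93 counts per 1000 counts of SNHG17 with DMSO and 15.1, 7.35 and 13.1 with AZD4573, which overlapped (difference of the log2 ratio 0.88, exact permutation p = 0.2, 0.28 adjusted), although SNHG17 was lower (log2 fold change -0.89, SE 0.0660, adjusted p = 3.5e-08). SCARNA12 to PHB2 differed by -1.28 (exact permutation p = 0.2, 0.28 adjusted), and the ratios of RN7SL2 and RPPH1 to the entries that cover them overlapped as well (exact permutation p = 0.9 and 0.3). For SCARNA2 no ratio is given, because its covering entry had counts in 1 library only. Its p of 0.1 still entered the adjustment over the 7 pairs, which made the adjusted values of the other pairs given above smaller.

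Genes within 5000 bases of a member moved in both directions. The closest was PARP2, a DNA repair enzyme that starts 208 bases from RPPH1 on the opposite strand, with a log2 fold change of -1.24 (SE 0.0654, adjusted p = 1.3e-09). CCDC107, 273 bases from RMRP on the opposite strand, was at -1.64 (adjusted p = 9.5e-09), and GSTA4, a glutathione transferase 317 bases from RN7SK on the opposite strand, at 0.78 (adjusted p = 0.00176). ENSG00000279696, 4789 bases from SCARNA9 on the opposite strand, was at 3.39 (adjusted p = 1.6e-11). ACTRT3, 1861 bases from TERC on the same strand, was at -3.26 (adjusted p = 3.8e-06).

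The other 565 entries had too few counts to be members, and most were short. All 15 members were annotated at 200 bases or longer, as were 43 of the 579 entries with a known length, and none of the 536 shorter entries was a member. Of these shorter entries 16 had any count, with at most 20 over the 6 libraries. By class, 4 of 314 SNORD, 1 of 214 SNORA, 3 of 25 SCARNA, 0 of 13 RNU and 7 of 14 separately named entries were members, and 539 of the 580 had 0 counts in every library. Of the RNU entries, genes of the U-type small nuclear RNAs, 9 had 0 counts and 4 had 1 count. Just inside the threshold were TERC with 40 counts and SCARNA2 with 53, and just outside were SNORA73B and SCARNA10 with 23 each and SNORA59A and SCARNA17 with 20 each. The median annotated length was 81 bases for SNORD and 133 for SNORA. Whether the library preparation or the counting can retain shorter RNAs was not tested.

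**Figure D4:**
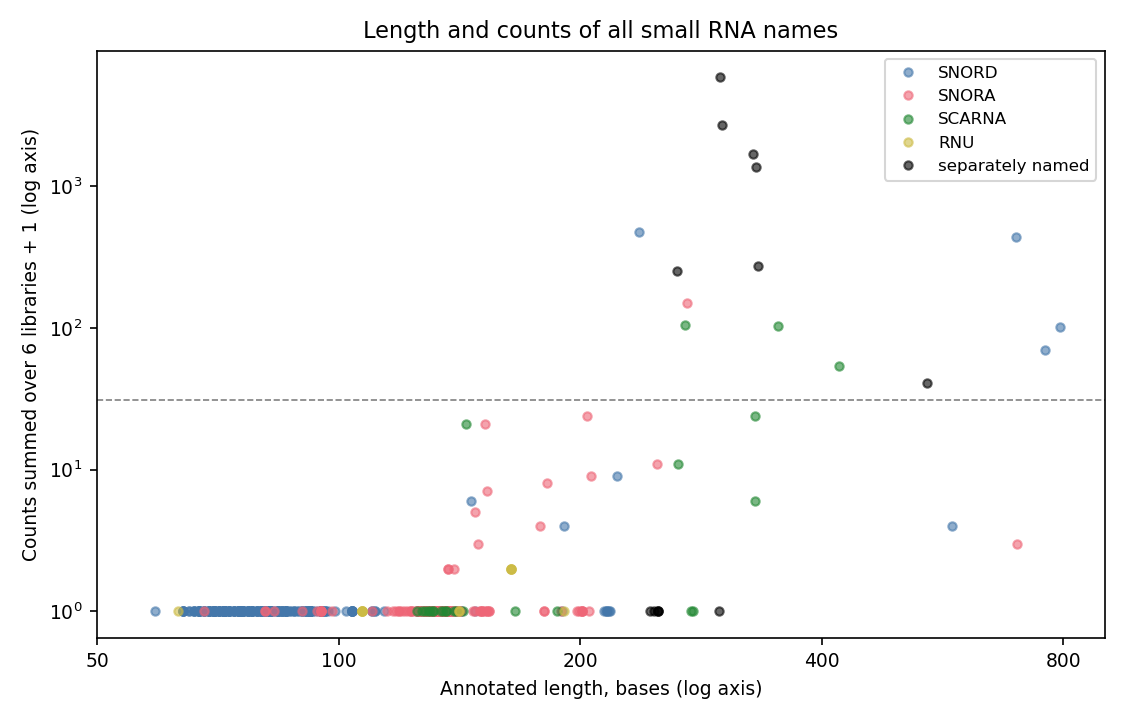
Annotated length in bases (log axis) against counts summed over 6 libraries plus 1 (log axis) for the 579 entries with a known length, colored by class, with the threshold of 30 counts as a dashed line. All entries above the line are 200 bases or longer.

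The mRNAs of the proteins that bind, make or trim these RNAs were mostly lower. Of 71 tested genes in 6 lists, 42 passed the same threshold as lower and 1 as higher, with a median log2 fold change of -0.80. Over all genes, 22.4% were lower and 22.0% higher, with a median of 0.03. The lists were written from general knowledge but with earlier results of these data known, so this comparison is a description and no test. All genes include thinly counted ones, and no share was taken for genes counted as highly as those listed. Of the mRNAs of the 4 listed proteins of the 7SK particle, 3 were lower at an adjusted p below 0.05 and 1.5-fold, and 0 higher. HEXIM1, which inhibits CDK9 within that particle, was at 121 ± 4.94 CPM with DMSO and 10.0 ± 0.236 CPM with AZD4573 (SD, n = 3), with -3.51 as the log2 fold change (SE 0.0562, adjusted p = 3.3e-13). MEPCE, which caps 7SK RNA, went from 133 ± 0.672 to 11.6 ± 1.40 CPM (SD, n = 3; log2 fold change -3.42, adjusted p = 9.3e-13). HEXIM2 was at -1.19 (adjusted p = 5.4e-06), and LARP7, which binds the 3′ end of 7SK, at -0.33 (adjusted p = 0.000144), a fold below 1.5.

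Of 11 mRNAs for proteins of RNase P and RNase MRP, 9 were lower and 0 higher (median -1.02), led by RPP40 (-2.26, adjusted p = 3.0e-10) and RPP25 (-2.12, adjusted p = 7.5e-09). Of 21 genes for the snoRNP core and its assembly, 10 were lower and 0 higher (median -0.58). The assembly factors SHQ1 (-1.72, adjusted p = 1.7e-10), NUFIP1 (-1.62, adjusted p = 3.9e-10) and NAF1 (-1.40, adjusted p = 5.7e-10) were among them. The core proteins of the box C/D particle moved less, with NOP56 at -0.57 (adjusted p = 1.9e-07), NOP58 at -0.22 (adjusted p = 0.000624), SNU13 at -0.05 (adjusted p = 0.373) and FBL, the methyltransferase, at 0.41 (adjusted p = 3.9e-06), each short of 1.5-fold. DKC1, the pseudouridine synthase of the box H/ACA particle, was at -0.58 (adjusted p = 3.2e-08), just short of 1.5-fold. Of its other core proteins, GAR1 was called lower (-0.89, adjusted p = 2.2e-08). NOP10 (-0.24, adjusted p = 0.0166) and NHP2 (0.24, adjusted p = 0.000626) were short of 1.5-fold.

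Of 6 mRNAs for signal recognition particle proteins, 2 were lower, SRP68 (-1.16, adjusted p = 1.3e-10) and SRP19 (-1.05, adjusted p = 2.2e-09). SRP14 (0.42) and SRP9 (0.22) were higher at less than 1.5-fold (adjusted p = 8.5e-06 and 0.00153). Of 21 genes for snRNA transcription, export and assembly, 13 were lower, including SNAPC2 (-2.05), GEMIN7 (-1.97) and PHAX (-1.86), and SNAPC5 was higher (0.76, adjusted p = 2.9e-06). Of 8 genes that trim or decay small RNAs, 5 were lower, including DBR1 (-1.96, adjusted p = 9.2e-11), the enzyme that opens intron lariats, and EXOSC3 (-1.66, adjusted p = 1.6e-10), and 0 were higher by 1.5-fold (DIS3 was at 0.11, adjusted p = 0.0414). The number of lower genes stayed the same or rose in every list with RLE factors, library size only, mitochondrial scaling and DESeq2. With mitochondrial scaling the genes above 0 other than SNAPC5 turned negative, among them FBL (-0.31) and SRP14 (-0.31), and SNAPC5 was at 0.03 (adjusted p = 0.779).

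**Figure D5:**
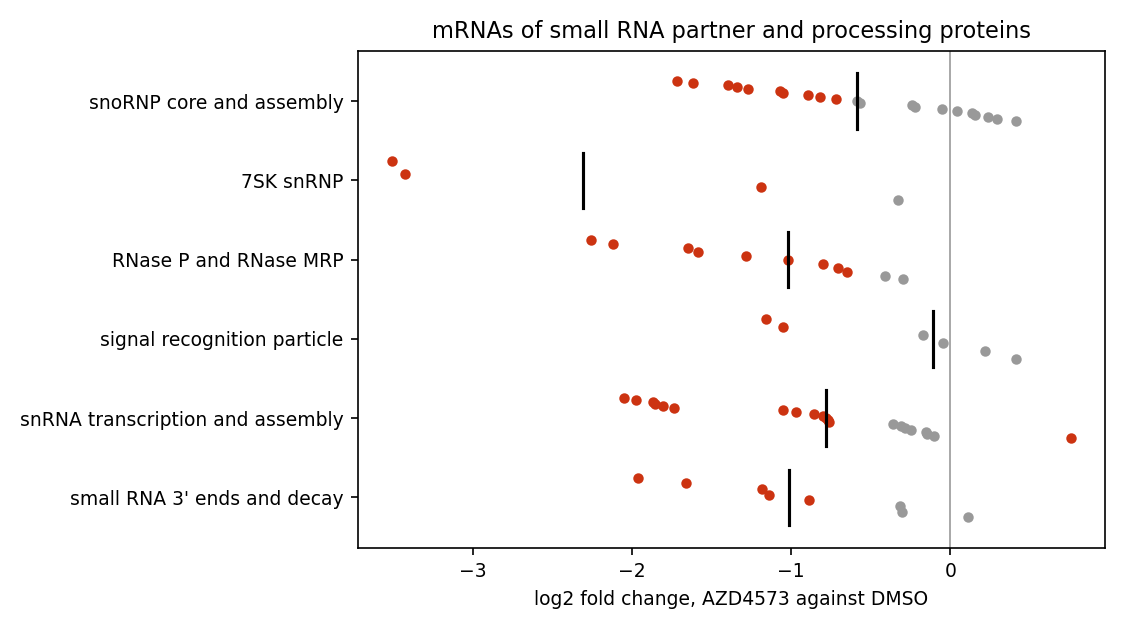
Log2 fold change (AZD4573 against DMSO) of the 71 mRNAs in 6 lists of partner and processing proteins, with genes called at an adjusted p under 0.05 and 1.5-fold in red, others in grey and a black bar at the median of each list. HEXIM1 and MEPCE lie furthest to the left at -3.51 and -3.42, and SNAPC5 (0.76) is the only red point to the right of 0.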

How the data were processed

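The deposited table holds estimated (expected) counts per gene, in whole numbers and without normalization. According to the submitters' processing notes and the methods, the authors trimmed reads with cutadapt 2.3, aligned them to GRCh38 with STAR 2.7.8a and estimated counts with RSEM 1.3.3, whose default settings take no account of strand and divide reads shared by several entries. The labels describe poly(A) selection and the supplemental methods rRNA depletion. The annotation release the authors used is not given in the sources used here.

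Libraries were grouped by their labels. All genes with at least 30 summed counts were fitted in R 4.3.3 with edgeR 4.0.16 (TMM, quasi-likelihood test, Benjamini-Hochberg adjustment over 19248 genes, no replicate block). Errors of CPM are SD over libraries and SE is that of the log2 fold change. Alternatives were RLE factors, library size only, mitochondrial scaling, other filters on low counts, DESeq2 1.42.0, a fold of at least 2, each library left out, a replicate block, members with at least 15 counts in each group, members free of other exons, and 0 or 2 added counts in the ratios (0.5 otherwise). Host genes, distances and sequences came from GENCODE 44 on GRCh38. The scripts were tested on simulated counts.

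All members were named, as the rule took each separately named RNA, the 4 most abundant of each snoRNA class and the largest changes, with host genes. The members and lists were chosen with earlier results of these data known. Within groups, each pair of libraries differed by more than sampling noise (chi-square divided by its degrees of freedom, 5.59 to 21.2), so no library is a copy. Depth limits the rarest members, TERC and SCARNA2, with 40 and 53 counts in all. Some items are not reported here.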

Additional observations from a re-analysis of the deposited data

How the results depend on the processing

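The 5 higher and 0 lower members became 5 and 1 with library size only (3708 and 4850 of 19248 genes). With mitochondrial scaling they became 3 and 4 (1887 and 9626 of 19248 genes). Without a filter they became 6 and 2 (4535 and 4593 of 31323 genes). With at least 10 counts in every library, where 7 members could be tested, they became 1 and 0 (3246 and 3660 of 15247 genes). Restricted to the 7 members with no base in another exon, 3 were higher and 0 lower, beside 4235 and 4321 of all 19248 genes. These 3 were the U3 genes, which share reads and are not independent. With the entries of a locus or family summed, an alternative chosen after seeing the data that leaves 11 genes, 3 were higher (the U3 sum, SCARNA9 and RPPH1) and 0 lower. Over all 19242 genes in that fit, 4237 were higher and 4322 lower. With each library left out in turn, 4 to 6 members were higher and 0 to 2 lower, beside 3942 to 4159 and 4210 to 4407 of 19248 genes. RLE factors (4271 and 4293 of 19248 genes) and filterByExpr with 14 members (4012 and 4191 of 17678 genes) left 5 and 0. So did DESeq2 (4040 and 4174 of 19245 genes) and a fold of at least 2 (2920 and 2574 of 19248 genes). Members with at least 15 counts in each group, taken from the main fit (4235 and 4321 of 19248 genes), were again 5 and 0.

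The log2 fold change reversed with mitochondrial scaling for RN7SL1 (-0.42), TERC (-0.49), the sums of 7SK (-0.32) and 7SL (-0.68) and SCARNA2 with its covering entry (-0.43), which follows the shift of all genes, and with library size only for the sum of 7SL (-0.056). With libraries left out it ranged from -0.86 to 0.68 for 7SK, -1.72 to 0.068 for RMRP, -1.82 to 0.068 for both RMRP entries, -0.38 to 0.22 for SNORA71B, -5.70 to 0.84 for TERC, -0.14 to 0.40 for the sum of 7SL and -0.041 to 0.49 for the SCARNA2 locus. Of 201 member values under alternatives, 166 kept direction and side of the threshold, 19 gained and 5 lost the call on adjusted p, and 11 reversed, and the cause was not tested beyond what is stated. The median difference of the 7 host ratios (-0.89) ranged from -1.12 to -0.34 with libraries left out and was -0.82 with 2 added counts. It includes SCARNA2, whose covering entry had counts in 1 library only, and over 6 pairs it was -0.39 with 0 added counts and -0.40 with SCARNA2 left out (chosen after seeing the data).

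Between libraries of 1 replicate number, the deviations from their group's mean had correlations of 0.0038, 0.092 and -0.015. Between libraries of unlike numbers these were -0.065 to 0.057. No label says whether libraries were paired, and such weak correlations cannot decide it. With the number as a block, 6 members were higher and 0 lower, RPPH1 being added (log2 fold change 1.21, adjusted p = 0.0180), and TERC reversed to -0.55. Over all 19248 genes, 4103 were higher and 4280 lower with the block.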
